A study of Danio rerio with 16 samples.

Results

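The genes described here are those of the circadian clock and of its D-box branch, followed through 16 RNA-seq libraries of zebrafish larval liver. They were chosen by gene symbol from a list of 39, of which 36 stood on a row of the 32058 features counted. Of the remaining symbols, cry1ba and cry1bb are older names of cry3a and cry3b in the RefSeq gene table, so these genes are already present. The symbol cry1ab is an older name of cry1b there, and cry1b is given beside the members but not counted with them. Livers of 30 larvae were pooled for each library, and 8 groups held 2 libraries each (n = 2). Wild-type larvae with normal treatment were taken at 4 and 5 dpf (days post fertilization). At 6 dpf all larvae were fasted, as wild type, as wild type with ethanol (EtOH), or as Tg(fabp10a:GCaMP6s), which carries a calcium sensor under the promoter of a fatty acid binding protein of hepatocytes. At 7 dpf wild-type larvae were fasted, fed, or fed and labelled ventral, a term the labels do not explain. Ethanol dose and duration, the food, and the clock time of each collection are not stated in the labels, so an effect of group and an effect of the hour of sampling cannot be told apart.

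The vertebrate clock is a feedback loop in which dimers of ARNTL (BMAL) with CLOCK or NPAS2 bind E-boxes and switch on period, cryptochrome, REV-ERB, BHLHE, CIART and D-box factor genes. PER and CRY proteins then block the dimer, so that transcripts of the activators and of their targets peak at different hours. A linked loop sets ROR receptors, which activate arntl, clock, npas2 and nfil3 genes, against REV-ERB receptors (nr1d), which repress them. In a further loop the bZIP proteins DBP, TEF and HLF activate genes through D-boxes and NFIL3 represses them there. In mouse liver these loops pace much of metabolism, and the hour of feeding can set the liver clock apart from that of the brain. Zebrafish tissues are also directly sensitive to light, and most clock genes exist as duplicates.

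Levels are CPM, counts scaled to a common library size with TMM factors. Differences are on the log2 scale, each with the standard error that edgeR's quasi-likelihood test implies. A call, written as rose or fell, needed a change of 2-fold or more and an adjusted p below 0.1, the limits of the series design text. Libraries held 18995692 to 28033476 counts. Markers of hepatocytes took 7.36% to 19.1% of all counts, against 0.0133% to 1.35% for exocrine pancreas, 0.0174% to 0.511% for skin and at most 0.4% for biliary cells, intestine, endothelium, red blood cells or leukocytes. In pooled liver, fewer cells of a type and less RNA per cell cannot be told apart. Nothing in the labels says that the pools came from separate clutches, so p-values measure only the spread between these libraries. With groups of 2 the smallest p of an exact permutation test is 0.333, and none is given for single levels. Where groups are said not to overlap, this describes the levels and is no further test.

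Of the 36 members found, 34 passed the filter on low counts. The REV-ERB gene nr1d4a and the ROR gene rorb did not, with at most 4 and 9 counts in any library. The D-box activator hlfb had at most 15 counts, and the ventral libraries, where it stood highest, were among those that let it pass. Only clockb, nr1d2a and hlfa were called in none of 9 comparisons in the main test. Under alternative settings nr1d2a was called in some of them. The ROR gene rorcb and the D-box repressor nfil3-5 were called most often, in 6 each.

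**Figure D1:**
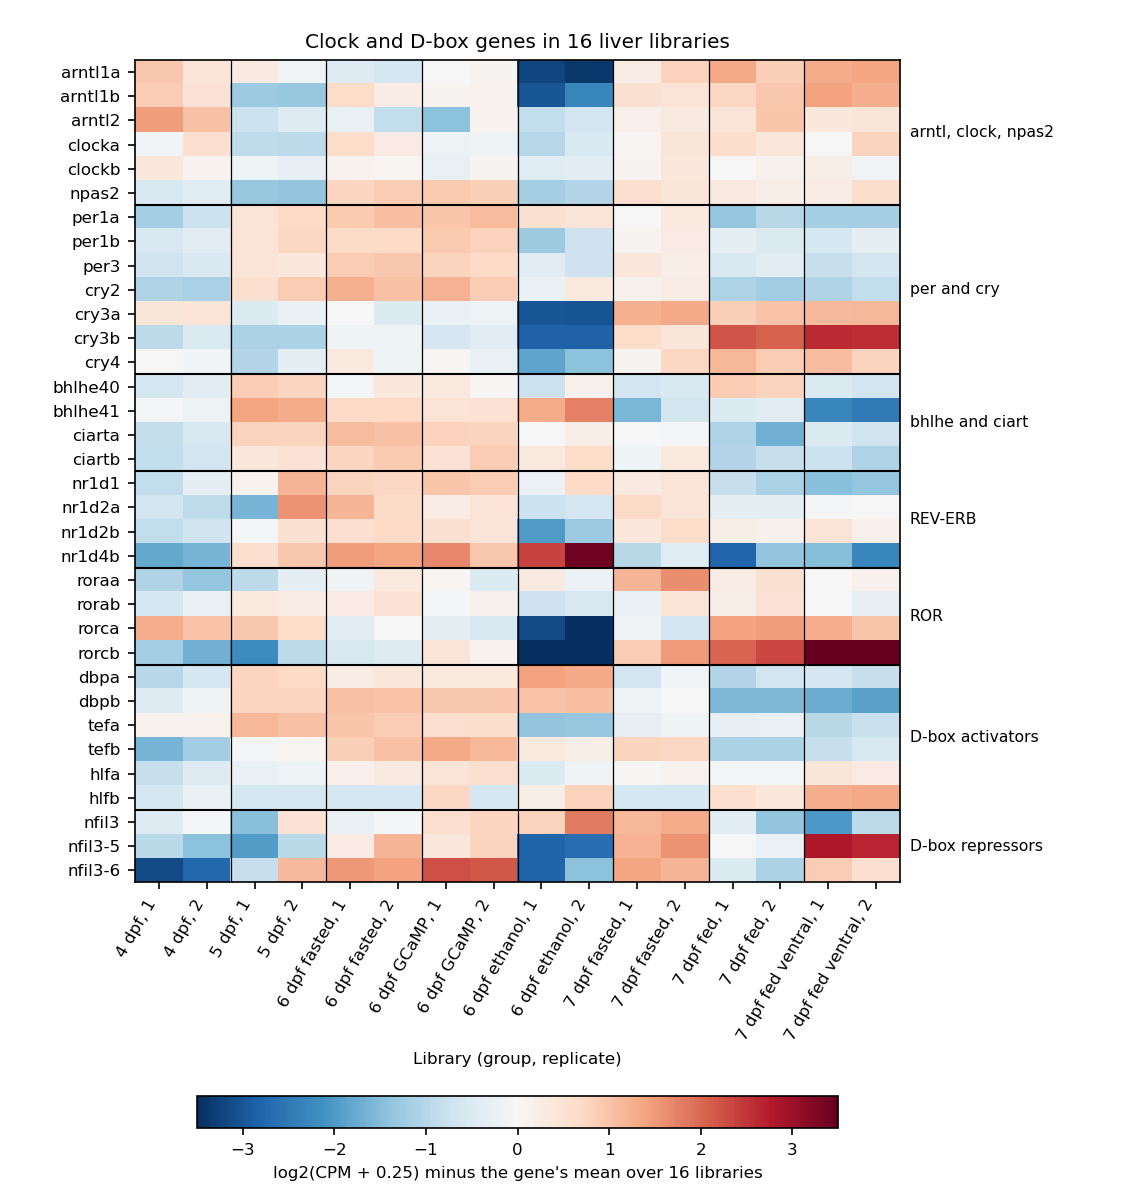
Level of each tested member (rows, grouped by role) in each library (columns), as log2(CPM + 0.25) minus the gene's mean over the 16 libraries, with red above and blue below that mean. The ethanol columns are blue for arntl1a, arntl1b, cry3a, cry3b, rorca, rorcb and nfil3-5, and the 5 dpf columns differ from each other for nr1d2a, nfil3 and nfil3-6.

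From 4 to 5 dpf, in larvae kept normally, 3 of 6 activators fell and 15 members of the other roles rose. Of 34 members 15 rose and 3 fell, while 7.44% of all 17799 genes tested rose and 7.42% fell. The median log2 change of the members was 0.86, against 0.06 over all genes tested. All 3 that fell were activators, and the 15 that rose were 4 per and cry genes, 4 bhlhe and ciart genes, 3 REV-ERB genes, 3 D-box activators and the D-box repressor nfil3-6.

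Among activators, arntl1b (ENSDARG00000035732), a partner of CLOCK, stood at 5.79 and 4.45 CPM at 4 dpf and at 1.11 and 1.07 CPM at 5 dpf. Its groups did not overlap, and the log2 change was -2.23 ± 0.32 (adjusted p = 3.35e-05). The paralog arntl2 fell by 2.07 ± 0.49 and clocka, which encodes the other partner of the dimer, by 1.31 ± 0.36 on the log2 scale. npas2, which can stand in for CLOCK, went from 5.3 and 5.75 CPM to 2.97 and 2.87 CPM, a log2 change of -0.92 ± 0.20 that missed the 2-fold limit.

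Among repressors, per1a (ENSDARG00000056885) stood at 11.1 and 14.9 CPM at 4 dpf and at 35.1 and 41.8 CPM at 5 dpf (log2 change 1.56 ± 0.17). The higher libraries were those of 5 dpf, with no overlap. per1b (1.09 ± 0.16) and per3 (1.02 ± 0.13), also period genes, rose by about the limit. cry2 rose by 1.83 ± 0.18; in zebrafish its protein, first named Cry3, lacks the repressor activity of other cryptochromes. cry3a, whose protein does repress in zebrafish, went the other way (-0.80 ± 0.13) without passing the fold limit. All 4 genes of bhlhe and ciart, which encode further repressors of the dimer, rose, from 1.28 ± 0.25 for ciartb to 1.48 ± 0.21 for bhlhe41.

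Of 6 D-box activators 3 rose and 0 fell, namely dbpa (1.55 ± 0.19), tefb (1.45 ± 0.16) and dbpb (1.06 ± 0.11). tefa stood at 107 and 106 CPM at 4 dpf and at 221 and 198 CPM at 5 dpf, just short of the fold limit (0.98 ± 0.11). The REV-ERB gene nr1d4b rose from 0.247 and 0.304 CPM to 2.27 and 3.02 CPM (3.24 ± 0.66). No ROR gene was called. Of the 18 calls, 9 held under every alternative setting and with any single library left out: arntl1b, arntl2, per1a, cry2, nr1d4b, dbpa, tefb, bhlhe41 and ciarta. Calls of per1b, nr1d1 and nr1d2b ended without 4 dpf replicate 1 or 5 dpf replicate 2, that of per3 without 4 dpf replicate 1 or 5 dpf replicate 1, that of dbpb without 4 dpf replicate 1 and that of clocka without 4 dpf replicate 2. With scaling by library size alone, which moved the median of all genes to -0.34, 8 members rose and 7 fell, and the split over all genes went from 1324 higher and 1321 lower to 597 and 2746. Pancreas markers rose alongside (9 of 17), from 0.0579% and 0.052% of counts to 0.161% and 0.302%, as did 7 of 11 red blood cell, 4 of 15 skin, 3 of 14 hepatocyte and 1 of 10 biliary features. Of 14 intestine features 1 rose and 2 fell, of 16 endothelial markers 1 rose and 1 fell, and 1 of 10 leukocyte markers fell. The part of these markers in the result was not tested.

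The 5 dpf libraries disagreed with each other on a few of these genes. nr1d2a (ENSDARG00000003820), a REV-ERB gene, stood at 6.8 CPM in replicate 1 and 64.9 CPM in replicate 2. Of 6295 genes at 10 CPM or more, 5 differed by more between these libraries. nfil3-6 stood at 68.4 and 265 CPM and nfil3 at 4.03 and 16.7 CPM, so that the log2 ratio of nfil3 to nfil3-6 was -4.09 and -3.99. nr1d1 stood at 128 and 267 CPM. These were the only 4 of 21 members at that level to differ by more than 2-fold, as did 1.57% of the 6295 genes. By contrast dbpb stood at 150.4 and 149 CPM, ciarta at 74.2 and 74.3 CPM and arntl1b at 1.11 and 1.07 CPM.

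Among genes at 10 CPM or more, the largest differences between the 5 dpf libraries were those of and2 and fbp2, both higher in replicate 1. Their log2 differences were each -6.84. The largest difference upward in replicate 2 was that of fkbp5 (4.38), which the glucocorticoid receptor induces, at 10.9 and 229.6 CPM. These genes are named here after their values were seen. Skin markers took 0.0762% of counts in replicate 1 and 0.0417% in replicate 2. At the other ages and treatments, 0 members at 10 CPM or more differed by over 2-fold between replicates, except with ethanol, where nfil3-6 (17 and 43.7 CPM), nr1d4b (8.65 and 17.9 CPM) and nfil3 (20 and 41.4 CPM) did. What set these libraries apart was not tested.

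**Figure D2:**
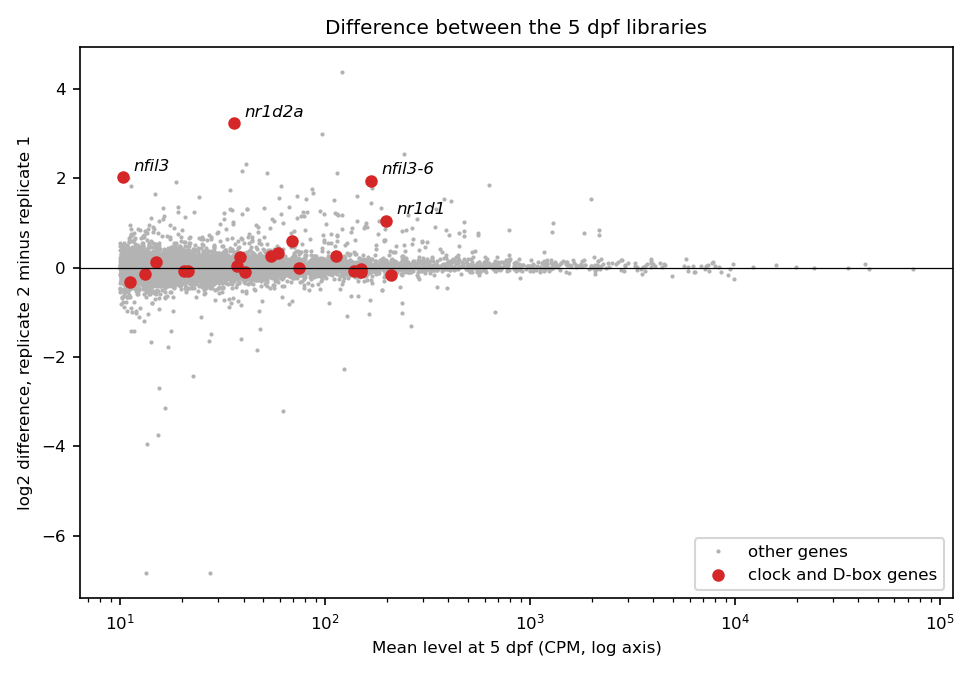
Difference between the 5 dpf libraries (vertical axis, log2 CPM of replicate 2 minus replicate 1) against the mean level at 5 dpf (horizontal log axis, CPM), for 6295 genes at 10 CPM or more, with 21 clock and D-box genes in red. nr1d2a, nfil3, nfil3-6 and nr1d1 lie above a 2-fold difference and the other 17 lie below it, of which nr1d2b is the farthest from 0 (0.59).

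From 5 dpf to fasted 6 dpf, 3 of 6 activators rose and 0 fell. The same 5 dpf libraries served in 5 against 4 dpf, so the fall of activators there and their rise here are not independent. Of 34 members 5 rose and 1 fell, while 7.98% of all genes tested rose and 10.2% fell. npas2 (ENSDARG00000016536) stood at 2.97 and 2.87 CPM at 5 dpf and at 13.5 and 14.7 CPM in the fasted libraries (log2 change 2.27 ± 0.20, adjusted p = 9.1e-08). arntl1b rose by 1.97 ± 0.33 and clocka by 1.51 ± 0.36. arntl1a went the other way, from 3.93 and 2.87 CPM to 2.2 and 1.94 CPM, and missed the fold limit. Outside the activators cry3b (1.02 ± 0.19) and nfil3-5 (2.44 ± 0.39) rose and the ROR gene rorca fell (-1.02 ± 0.24). Without 5 dpf replicate 2, 11 members rose and 1 fell, the additional genes being cry4, nr1d2a, roraa, rorcb, tefb and nfil3-6. The call of rorca ended without 5 dpf replicate 1 or 6 dpf fasted replicate 1, and under RLE scaling, library size alone, DESeq2 and a fit of the compared groups only. With scaling by library size alone 7 rose and 0 fell, and with RLE scaling 6 and 0. Skin markers rose alongside (9 of 15), from 0.0762% and 0.0417% of counts to 0.383% and 0.511%. Of 11 red blood cell features 9 fell, and hepatocyte markers went from 18% and 17.7% of counts to 11.2% and 11.3%, with 2 of 14 lower. The intestine share went from 0.228% and 0.226% of counts to 0.119% and 0.096%, with 4 of 14 features lower, 2 of 10 biliary markers rose, and of 10 leukocyte markers 1 rose and 1 fell. The part of these markers was not tested.

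Between fasted larvae of 6 and 7 dpf, bhlhe41, ciarta and 2 D-box activators fell while 2 ROR genes rose. The fasted wild-type libraries of 6 dpf also served in the comparisons with 5 dpf, ethanol and GCaMP livers, so these are not independent. Of 34 members 4 rose and 5 fell, against 2.69% and 4.12% of all genes tested. dbpb (ENSDARG00000057652) stood at 179 and 177 CPM at 6 dpf and at 80.8 and 88.2 CPM at 7 dpf (-1.08 ± 0.11), and tefa at 189.6 and 179 CPM against 79.3 and 88 CPM (-1.14 ± 0.11). In both genes the 7 dpf libraries were the lower. bhlhe41 (-1.78 ± 0.22), ciarta (-1.11 ± 0.16) and nr1d4b (-2.41 ± 0.58) fell as well. Those that rose were arntl1a (1.17 ± 0.30), cry3a (1.52 ± 0.14), roraa (1.36 ± 0.30) and rorcb (1.76 ± 0.33). The calls of arntl1a and nr1d4b ended without 7 dpf fasted replicate 2 and replicate 1, respectively. cry2 (-0.96 ± 0.17), per1a (-0.80 ± 0.16) and per3 (-0.62 ± 0.13) missed the fold limit. nfil3, at 9.83 and 11.1 CPM against 26.4 and 28.9 CPM, missed the adjusted p limit (1.40 ± 0.65). It was called without a low-count filter and in a fit of the compared groups only. Skin markers fell alongside (6 of 15), to 0.101% and 0.107% of counts, 5 of 16 endothelial and 1 of 10 biliary markers rose, and 3 of 11 red blood cell, 1 of 14 hepatocyte and 1 of 14 intestine features fell. Their part was not tested.

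Fasted livers at 7 dpf held 12 members higher and 2 lower than livers at 4 dpf, while 18.7% of all genes tested rose and 20.3% fell. The 4 dpf larvae were labelled with normal treatment, so age and labelled treatment change together here. The D-box repressor genes all rose, with nfil3-6 (ENSDARG00000087188) at 13.3 and 17.7 CPM at 4 dpf and at 312 and 274 CPM at 7 dpf (4.24 ± 0.70). nfil3-5 (2.82 ± 0.37), roraa (2.78 ± 0.32), rorcb (2.74 ± 0.34) and tefb (2.21 ± 0.16) followed in size. rorca fell from 15.4 and 12.8 CPM to 5.8 and 3.85 CPM (-1.54 ± 0.24), apart from roraa and rorcb of its family. Of the 14 calls, 6 held in every setting: roraa, rorca, rorcb, tefb, nfil3-5 and nfil3-6. With scaling by library size alone 5 members rose and 3 fell. This scaling ended the calls of npas2, per1a, cry2, cry3b, nr1d2b, nr1d4b and nfil3 and added that of bhlhe41. Under it the split over all genes went from 3337 higher and 3616 lower to 2287 and 4857. Without 4 dpf replicate 1, 8 members rose and 1 fell. nr1d2a, at 13.6 and 11.5 CPM at 4 dpf and 34.4 and 29.8 CPM at 7 dpf, missed the adjusted p limit. It was called without a low-count filter and in a fit of the compared groups only. Calls of nfil3 and arntl2 ended without 4 dpf replicate 1 or either 7 dpf fasted library, nfil3 also without 4 dpf replicate 2. Those of nr1d4b and per1a ended without 4 dpf replicate 1 or 7 dpf fasted replicate 2, nr1d4b also without 4 dpf replicate 2, and that of npas2 without 4 dpf or 7 dpf fasted replicate 1. The comparison shares its libraries with those of 5 against 4 dpf and of 7 against 6 dpf. Pancreas (17 of 17), endothelial (12 of 16) and skin markers (7 of 15) rose alongside and 7 of 11 red blood cell features fell. Hepatocyte markers went from 15.4% and 16% of counts to 8.1% and 7.36%, with 1 of 14 higher and 1 lower. Of 10 biliary markers 4 rose, from 0.129% and 0.123% of counts to 0.313% and 0.315%. Intestine markers went from 0.31% and 0.305% of counts to 0.0717% and 0.0787%, with 4 of 14 features higher and 4 lower, of 10 leukocyte markers 1 rose and 3 fell, and 1 endothelial marker fell. The part of these markers was not tested.

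**Figure D3:**
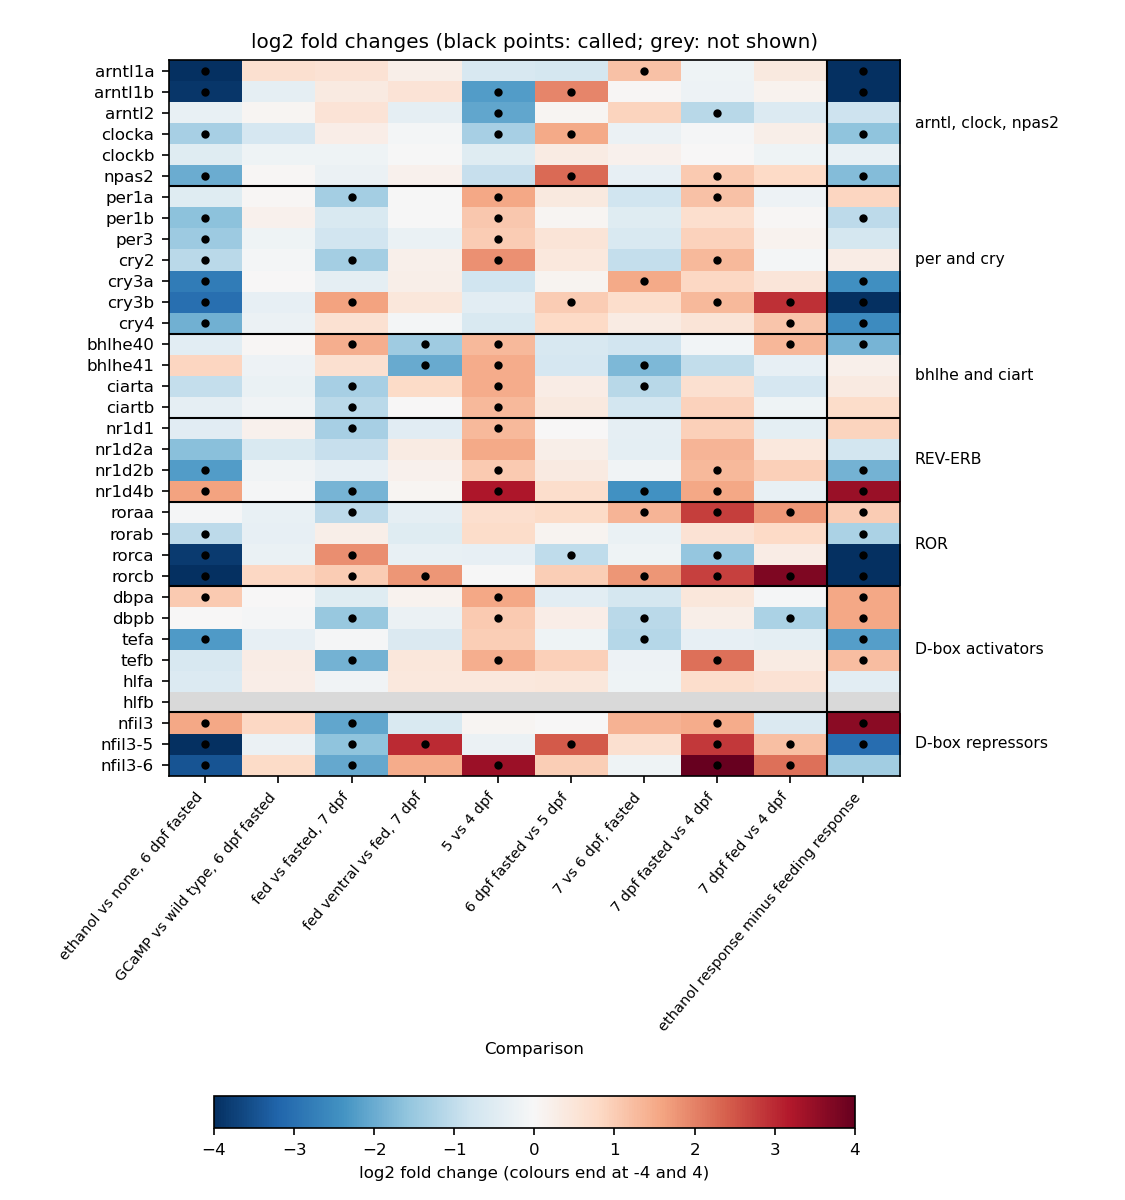
Fitted log2 fold changes (colour, red higher and blue lower in the first-named group) of the tested members (rows, by role) in 9 comparisons and, in the last column, of the ethanol response minus the feeding response. Black points mark called changes, of which 5 against 4 dpf has 18 and GCaMP against wild type has 0; hlfb is grey because its fitted values rest on groups at or near 0 counts.

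With ethanol 4 of 6 activators and 6 of 7 per and cry genes fell. Of 34 members 4 rose and 17 fell at 6 dpf against fasted larvae without ethanol, while 11.8% of all genes tested rose and 11.1% fell. The members' median log2 change was -1.06, against 0 over all genes tested. With scaling by library size alone these medians were -0.61 and 0.45, 5 members rose and 14 fell, and the split over all genes went from 2108 higher and 1981 lower to 4162 and 1041. In 12 of 34 members both ethanol libraries lay below all 14 others, including those of other ages and of fed larvae, as they did for 6.56% of genes tested. In 2, dbpa and nr1d4b, both lay above all others, as for 9.3% of genes tested.

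Of 6 activators 4 fell and 0 rose. arntl1a (ENSDARG00000006791) stood at 2.2 and 1.94 CPM without ethanol and at 0.11 and 0.0703 CPM with it, which were 4 and 2 counts. The log2 change was -4.41 ± 0.45 (adjusted p = 3.62e-07), a 21.3-fold lower level. arntl1b went from 4.87 and 3.68 CPM to 0.165 and 0.422 CPM (-3.89 ± 0.37), and npas2 from 13.5 and 14.7 CPM to 3.39 and 3.73 CPM (-1.99 ± 0.19). clocka fell less (-1.34 ± 0.35). clockb (-0.49 ± 0.17) missed the fold limit only, and both its ethanol libraries lay below all 14 others. arntl2 (-0.29) passed neither limit, standing at 1.38 and 0.818 CPM without ethanol and 0.826 and 0.985 CPM with it.

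Of 7 per and cry genes 6 fell and 0 rose. cry3a (ENSDARG00000069074) stood at 68.1 and 50.2 CPM without ethanol and at 8.57 and 8.26 CPM with it (-2.81 ± 0.15, adjusted p = 1.1e-10), and cry3b at 6.25 and 6.29 CPM against 0.771 and 0.774 CPM (-3.01 ± 0.21). The ethanol libraries were the lowest of all 16 in both genes. cry4, whose protein does not repress the dimer in zebrafish, fell by 1.92 ± 0.31 on the log2 scale. per1b (-1.65 ± 0.16), per3 (-1.46 ± 0.13) and cry2 (-1.07 ± 0.17) fell. per1a missed the fold limit only (48.1 and 53.3 CPM against 37.2 and 35.1 CPM). cry1b, the gene that the listed symbol cry1ab stands for, fell as well (-2.81 ± 0.18). None of the bhlhe and ciart genes was called, although bhlhe41 (0.86 ± 0.21) and ciarta (-0.95 ± 0.16) differed at an adjusted p under 0.1.

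Of 4 ROR genes 3 fell with ethanol, and of 4 tested REV-ERB genes 1 rose and 1 fell. rorcb (ENSDARG00000017780) stood at 4.41 and 4.81 CPM without ethanol and at 0.165 and 0.141 CPM with it, and rorca (ENSDARG00000057231) at 4.78 and 6.19 CPM against 0.496 and 0.246 CPM (-3.82 ± 0.32). rorab fell by 1.06 ± 0.20 and roraa stood at 3.67 and 5.17 CPM against 5.07 and 3.52 CPM. nr1d2b went from 85 and 92.3 CPM to 14.2 and 23.5 CPM (-2.24 ± 0.23). nr1d1 did not pass, at 202 and 195 CPM against 102 and 189 CPM, where the ethanol libraries differed from each other. nr1d2a, at 49.8 and 34.9 CPM against 12.7 and 14.2 CPM, did not overlap. It still missed the adjusted p limit in the main edgeR test (-1.66 ± 0.76). There its spread was estimated over all groups, including the 5 dpf libraries at 6.8 and 64.9 CPM. It was called in DESeq2, and in edgeR without a low-count filter and in a fit of the compared groups only. nr1d4b rose to 8.65 and 17.9 CPM from 4.46 and 4.24 CPM (1.60 ± 0.50).

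Of 6 D-box activators 2 rose and 1 fell with ethanol, and paralogs differed in the size or the direction of change. tefa (ENSDARG00000039117) fell from 189.6 and 179 CPM to 37 and 39 CPM (-2.28 ± 0.12), dbpa rose from 15.5 and 16.8 CPM to 34.3 and 32.7 CPM (1.05 ± 0.19), and dbpb stood at 179 and 177 CPM against 178 and 184 CPM (0.02). tefb (-0.65 ± 0.15) and hlfa (-0.55 ± 0.14) missed the fold limit. hlfb had 0 counts in both fasted wild-type libraries and 7 and 12 with ethanol. With 3 counts set over the fasted group as floor this was 4.04-fold higher, with no allowance for error in the ethanol counts. The fasted GCaMP libraries, without ethanol, had 8 and 0 counts. The call of hlfb ended with counts halved. Among D-box repressors nfil3-6 fell from 342 and 317 CPM to 17 and 43.7 CPM (-3.45 ± 0.67), and nfil3-5 was at 0.165 and 0.211 CPM with ethanol against 3.31 and 6.44 CPM. nfil3 rose to 20 and 41.4 CPM from 9.83 and 11.1 CPM (1.55 ± 0.64, adjusted p = 0.0952). The log2 ratio of nfil3 to nfil3-6 stood near 0 with ethanol (0.24 and -0.08) and at -5.12 and -4.83 without.

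Of the 21 calls, 14 held under every alternative and left-out library, all of them lower. None of the 4 rises did: without 6 dpf fasted replicate 1 no member rose and 16 fell, and without 6 dpf fasted replicate 2 or ethanol replicate 2 only dbpa did. The call of cry2 ended without 6 dpf fasted replicate 1 or ethanol replicate 1, and that of rorab without 6 dpf fasted replicate 2 or ethanol replicate 1. With library size alone the calls of clocka, cry2 and rorab ended. Against the mean of fasted wild type and GCaMP 3 members rose and 15 fell, without the calls of clocka, rorab and nfil3. Markers of pancreas (17 of 17) and skin (11 of 15) fell alongside. Skin markers took 0.383% and 0.511% of counts without ethanol and 0.1% and 0.0931% with it, pancreas markers 0.44% and 0.345% against 0.0133% and 0.141%, and their part in the result was not tested. Hepatocyte markers took 11.2% and 11.3% of counts against 11.6% and 10.4%, but after TMM scaling 7 of 14 fell and 2 rose, with a median log2 change of -1.02. Of 14 intestine features 6 fell and 1 rose, of 10 biliary markers 2 rose and 1 fell, of 11 red blood cell features 1 rose and 1 fell, and 2 of 16 endothelial and 2 of 10 leukocyte markers rose. The part of these markers was not tested either.

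In fed livers not labelled ventral, D-box repressors and some clock repressors, REV-ERB genes and D-box activators were lower, and no activator was called. Of 34 members 5 rose and 12 fell in 7 dpf fed against fasted livers, while 20.7% of all genes tested rose and 16.8% fell. The members' median log2 change was -0.35, against 0 over all genes tested. With scaling by library size alone these medians were -0.15 and 0.19, and 5 members rose and 10 fell. Under it the split over all genes went from 3685 higher and 2988 lower to 4332 and 2362. Of 6 activators 0 were called. arntl1a stood at 3.76 and 5.64 CPM when fasted and 8.2 and 5.78 CPM when fed, and arntl1b at 4.47 and 4.36 CPM against 5.15 and 6.1 CPM.

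per1a fell from 26 and 32.2 CPM when fasted to 9.78 and 12.9 CPM when fed (-1.35 ± 0.17, adjusted p = 1.64e-06), cry2 fell by 1.36 ± 0.18 and ciarta by 1.32 ± 0.16 on the log2 scale. nr1d1 (ENSDARG00000033160), a REV-ERB gene, stood at 146 and 159.8 CPM when fasted and at 67.2 and 53.9 CPM when fed (-1.34 ± 0.37). dbpb went from 80.8 and 88.2 CPM to 29.6 and 29.7 CPM (-1.51 ± 0.12), and tefb from 25.6 and 24.7 CPM to 6.78 and 6.75 CPM (-1.89 ± 0.16). In these genes the fed libraries were the lower, with no overlap. Of 3 D-box repressors 3 fell, nfil3-6 from 312 and 274 CPM to 86.3 and 55.1 CPM (-2.05 ± 0.63). The fed ventral libraries, not part of this test, did not all lie low. In them nfil3-5 stood at 20.4 and 18.4 CPM, above the 6.55 and 8.51 CPM of fasted livers. There nfil3-6 stood at 222 and 175 CPM and nfil3 at 2.69 and 6.03 CPM.

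The genes that rose were cry3b, 2 ROR genes, bhlhe40 and hlfb. cry3b rose from 11 and 9.49 CPM to 32.7 and 30.1 CPM (1.61 ± 0.17), rorca from 5.8 and 3.85 CPM to 17 and 17.9 CPM (1.85 ± 0.24) and bhlhe40, a repressor of the dimer, from 53.6 and 58.3 CPM to 158 and 146 CPM (1.44 ± 0.24). rorcb rose by 1.01 ± 0.29, while roraa of the same family fell by 1.05 ± 0.30. In the fed ventral libraries, not part of this test, bhlhe40 stood near its fasted level, at 59.5 and 54.9 CPM. There cry3b stood at 43.7 and 42.6 CPM, rorca at 15.5 and 12.5 CPM and rorcb at 111 and 103 CPM. hlfb had 0 counts in both fasted libraries and 6 in each fed library, 3.86-fold higher over the same floor of 3 counts. The fall of nr1d4b also rests on few counts, 14 and 20 when fasted and 0 and 10 when fed. Of the 17 calls, 10 held in every setting: per1a, cry2, cry3b, nr1d1, rorca, dbpb, tefb, nfil3-5, bhlhe40 and ciarta. The calls of nfil3 and nfil3-6 ended without 7 dpf fed replicate 2, those of nr1d4b, roraa and ciartb without fed replicate 1 or fasted replicate 2, and that of rorcb without fed replicate 2 or fasted replicate 1. With library size alone the calls of roraa and ciartb ended as well. The call of hlfb ended without either fasted library or fed replicate 1, and with counts halved. Hepatocyte markers took 8.1% and 7.36% of counts when fasted and 19.1% and 17.8% when fed, and endothelial markers fell (13 of 16) from 0.0847% and 0.111% to 0.0275% and 0.0278%. Of 14 hepatocyte markers 4 rose and 1 fell, 11 of 11 red blood cell features and 6 of 10 leukocyte markers rose, and 6 of 17 pancreas and 2 of 10 biliary markers fell. Of 15 skin markers 6 fell and 1 rose. Intestine markers went from 0.0717% and 0.0787% of counts to 0.256% and 0.326%, with 5 of 14 features higher and 1 lower. Their part in the result was not tested.

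Ethanol and feeding were each measured against fasted livers of the same age and share no library. The difference between their effects could therefore be tested, but the ethanol libraries were of 6 dpf and the fed ones of 7 dpf. Treatment, age and the hour of sampling cannot be told apart in it. The fed ventral libraries were not part of it. Of 34 members the ethanol response was the lower in 15 and the higher in 6, as it was for 16.5% and 14.6% of all genes tested. With library size alone it was lower in 14 and higher in 8, and the split over all genes went from 2928 lower and 2598 higher to 2311 and 3341. The ethanol effect was the lower for arntl1a (difference -4.98 ± 0.55), arntl1b (-4.24 ± 0.47), clocka (-1.61 ± 0.49) and npas2 (-1.75 ± 0.26), for cry3a, cry3b, cry4 and per1b, for rorab, rorca and rorcb, and for nr1d2b, tefa, nfil3-5 and bhlhe40. The widest differences were those of rorcb (-5.86 ± 0.62) and rorca (-5.67 ± 0.40), which fell with ethanol and rose with food. It was the higher for nr1d4b (3.45 ± 0.92), nfil3 (3.62 ± 0.93), dbpa (1.55 ± 0.27), dbpb (1.53 ± 0.16), tefb (1.24 ± 0.22) and roraa (1.01 ± 0.42). For nr1d4b the 7 dpf libraries held few counts, 14 and 20 when fasted and 0 and 10 when fed. Of the members only cry2, nfil3-5 and nfil3-6 were called lower with both. Beside the members cry1b fell with both (-2.81 ± 0.18 with ethanol and -1.13 ± 0.18 with food), as did cry1a (-1.74 ± 0.13 and -1.10 ± 0.13). In per1a, per1b, per3, cry3a, tefb and ciarta both changes were downward at an adjusted p under 0.1, but 1 of them missed the fold limit. For cry2 the difference was 0.29 and not called, which does not show that the effects were alike. Of 11 red blood cell features 10 were lower in the same test, as were 6 of 14 hepatocyte, 4 of 10 leukocyte and 1 of 17 pancreas markers. Of 14 intestine features 8 were lower and 2 higher, of 15 skin markers 3 were lower and 2 higher, and 13 of 16 endothelial and 3 of 10 biliary markers were higher; their part was not tested. Of the 21 calls 18 held in every setting, and those of per1b, roraa and rorab did not. The call of rorab ended without 7 dpf fasted replicate 1, that of per1b also without ethanol or fed replicate 1, and that of roraa without 6 dpf fasted, ethanol or fed replicate 1 or 7 dpf fasted replicate 2.

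**Figure D4:**
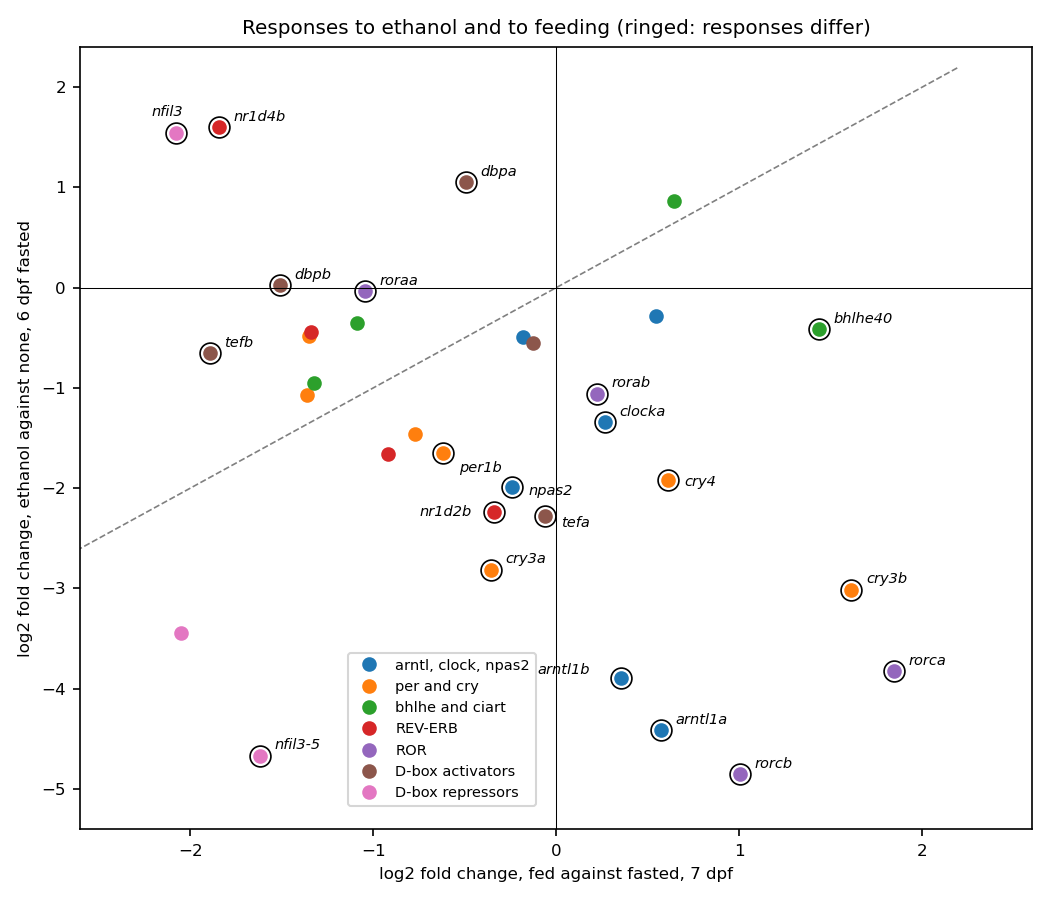
Log2 fold change with ethanol at 6 dpf (vertical axis) against that with food at 7 dpf (horizontal axis) for 33 members, coloured by role; hlfb is left out because both fasted groups were at 0 counts. Rings mark the 21 members drawn whose responses differed in the test, the dashed line marks equal responses, and rorca, rorcb, arntl1a, arntl1b and cry3b lie farthest below it.

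Ventral livers of fed larvae differed from other fed livers in 4 of 34 members, 2 higher and 2 lower, while 0.5% of all genes tested rose and 0.663% fell. With library size alone the members' counts were the same, and the split over all genes went from 89 higher and 118 lower to 69 and 156. rorcb stood at 28 and 34.7 CPM in fed livers and at 111 and 103 CPM in ventral ones (1.77 ± 0.29, adjusted p = 0.0111). nfil3-5 (ENSDARG00000094965) stood at 2.63 and 2.28 CPM against 20.4 and 18.4 CPM (2.98 ± 0.35, adjusted p = 0.00011). For both genes the ventral libraries were the highest of all 16. bhlhe41 fell from 11.3 and 12 CPM to 3.05 and 2.66 CPM (-2.03 ± 0.25) and its paralog bhlhe40 from 158 and 146 CPM to 59.5 and 54.9 CPM (-1.41 ± 0.24). These 4 calls held in every setting and without any single library. tefa (-0.59 ± 0.11) and ciarta (0.77 ± 0.16) passed the adjusted p but not the fold limit. The activators and per genes were not called, with arntl1a at 8.06 and 8.49 CPM against 8.2 and 5.78 CPM in fed livers. Pancreas markers took 0.0202% and 0.0678% of counts in ventral libraries against 0.308% and 0.271% in fed ones, with no pancreas marker called. Of 14 intestine features 1 fell, and the part of these markers was not tested.

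GCaMP livers were called different from wild type in 0 of 34 members, as 0.714% of all genes tested rose and 0.247% fell. By edgeR 3 members had an unadjusted p under 0.05, and DESeq2 called 0. The largest log2 changes among members over 1 CPM in every library of these groups were those of rorcb (0.84), at 4.41 and 4.81 CPM in wild type and 9.25 and 7.24 CPM in GCaMP, and of nfil3 (0.83), at 9.83 and 11.1 CPM against 17.6 and 19.6 CPM. These did not pass. Of the cell markers 1 was called, a leukocyte marker that rose (1 of 10). Pancreas markers, none of them called, took 0.977% and 1.14% of counts in GCaMP libraries against 0.44% and 0.345% in wild type. Skin markers took 0.3% and 0.335% against 0.383% and 0.511%. The part of these markers was not tested.

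Fed livers at 7 dpf, not those labelled ventral, were set beside 4 dpf livers, the youngest group. Of 34 members 7 rose and 1 fell, while 6.72% of all genes tested rose and 2.89% fell. With library size alone 6 members rose and 1 fell, and the split over all genes went from 1196 higher and 515 lower to 981 and 772. The activators and per genes were not called, with per1a at 11.1 and 14.9 CPM at 4 dpf and 9.78 and 12.9 CPM when fed, and arntl1b at 5.79 and 4.45 CPM against 5.15 and 6.1 CPM. The activator npas2, at 5.3 and 5.75 CPM against 9.88 and 9.31 CPM, missed the fold limit only (0.80 ± 0.18). So did the REV-ERB gene nr1d2b (0.96 ± 0.22). cry3b rose from 3.57 and 4.8 CPM to 32.7 and 30.1 CPM (2.91 ± 0.18), rorcb from 2.76 and 1.9 CPM to 28 and 34.7 CPM (3.74 ± 0.34) and bhlhe40 by 1.33 ± 0.24. dbpb fell from 64.8 and 79.1 CPM to 29.6 and 29.7 CPM (-1.28 ± 0.12). The calls of nfil3-5 and nfil3-6 ended without 4 dpf replicate 2 or fed replicate 1, nfil3-6 also without 4 dpf replicate 1, and that of cry4 without fed replicate 1. This comparison shares the fed libraries with that of fed against fasted livers and the 4 dpf libraries with those of age. Of 11 red blood cell features 10 rose alongside, as did 6 of 10 leukocyte, 4 of 17 pancreas and 2 of 14 hepatocyte markers. Of 14 intestine features 2 rose and 1 fell, of 10 biliary markers 1 rose and 1 fell, and 2 of 16 endothelial markers fell; their part was not tested.

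**Figure D5:**
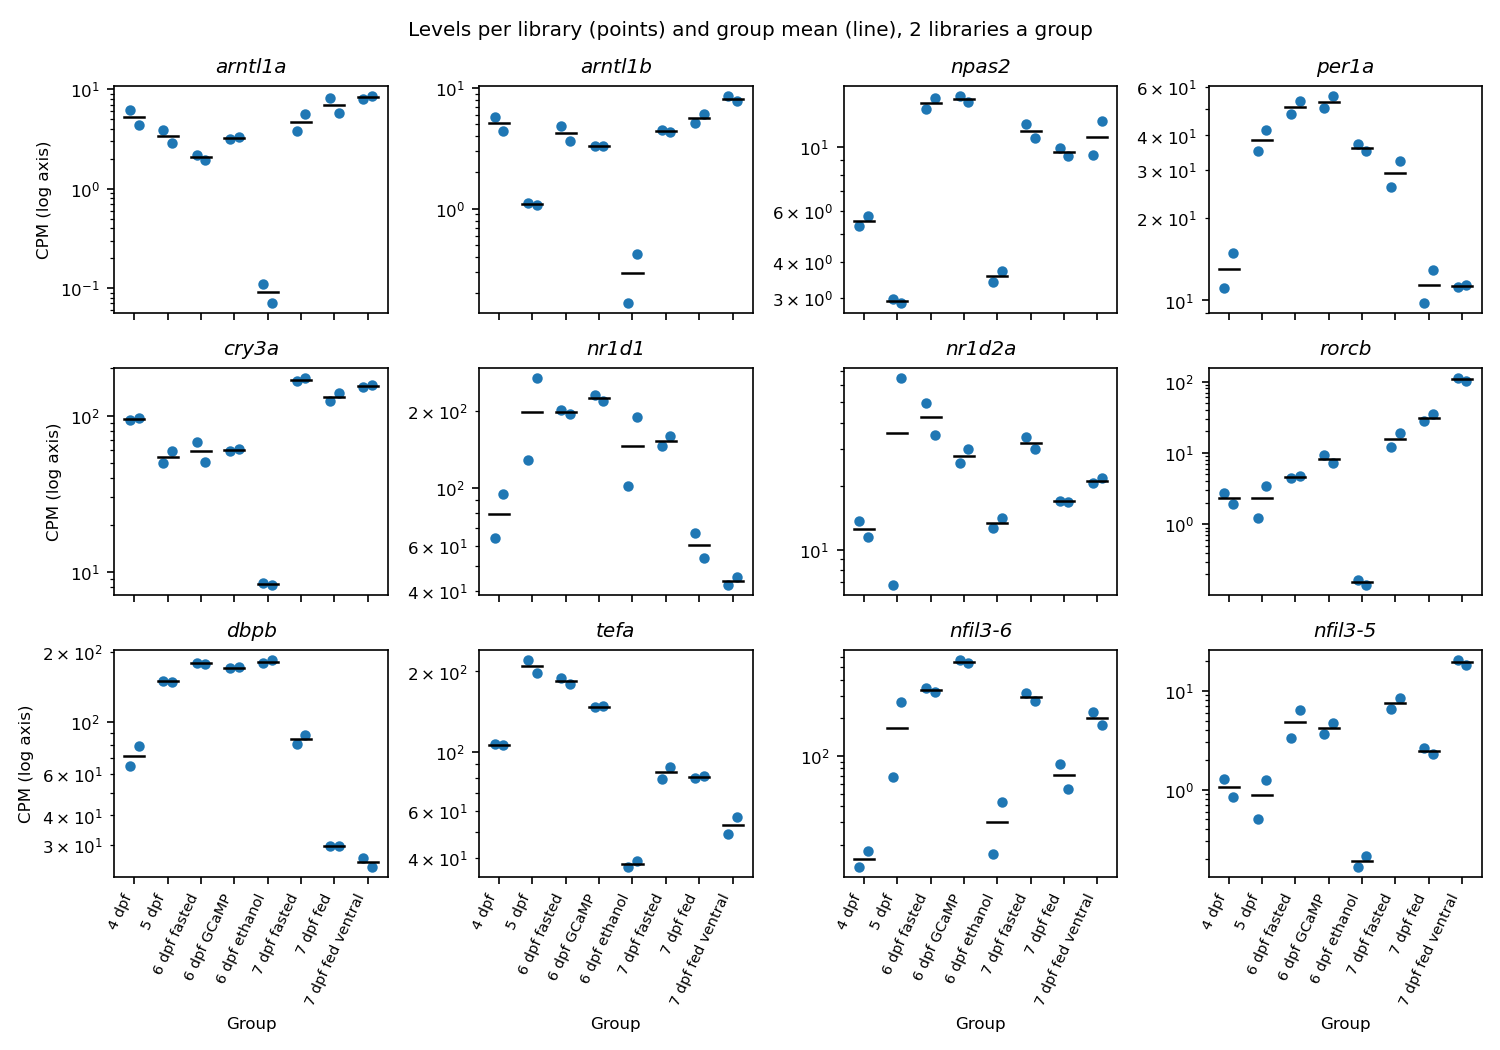
CPM (log axes, which differ between panels) of 12 members in each library (points) with the mean of each group (line), n = 2 libraries a group. rorcb reaches 111 and 103 CPM in ventral livers and 0.165 and 0.141 CPM with ethanol, and dbpb falls to 29.6 and 29.7 CPM in fed livers while npas2 is lowest at 5 dpf.

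Other genes of the clock were taken from lists drawn from general knowledge, though chosen with earlier results of these data known. Of the light-induced genes per2 and cry5 both fell with ethanol, per2 from 158 and 159 CPM to 8.21 and 10.2 CPM (-4.11 ± 0.15) and cry5 from 79.3 and 76.8 CPM to 18.9 and 17.3 CPM. cry1a, also induced by light but added after its values were seen, stood at 134 and 123 CPM against 33.9 and 43.1 CPM. No comparison by age called per2 or cry5, but between successive ages, fasted from 6 dpf on, both passed the adjusted p and missed the fold limit. For per2 these changes were 0.62 ± 0.13 to 5 dpf, 0.79 ± 0.13 to 6 dpf and -0.65 ± 0.13 to 7 dpf. For cry5 they were 0.83 ± 0.13, 0.62 ± 0.13 and -0.90 ± 0.13. Of 34 kinases, ligases and cofactors that act on clock proteins, 3 rose and 3 fell with ethanol, where 11.8% of all genes tested rose and 11.1% fell. With food 4 rose and 6 fell, where 20.7% of all genes tested rose and 16.8% fell, so these counts lie near or below the share over all genes. usp2a, a deubiquitinase, rose with ethanol (3.07 ± 0.30), as did csnk1e, a kinase of PER proteins (1.94 ± 0.52). With food the deacetylase sirt1 (-2.74 ± 0.19) and the kinase csnk1db (-1.56 ± 0.12) fell. Of 26 tested genes known as clock outputs in mammals, 4 rose and 4 fell with ethanol and 9 rose and 6 fell with food, to be read against the same shares over all genes. Among these elovl5, a fatty acid elongase, rose with ethanol (4.03 ± 0.21) and with food (5.12 ± 0.22).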

How the data were processed

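Per the submitters' processing notes, reads were aligned to GRCz11 with HISAT2 and counted with featureCounts; no source used here gives versions, annotation or the strand setting, so reads of overlapping antisense genes may be included. The authors deposited raw counts, with 1 column a library. Of values from 1 to 50, 70.3% to 77.8% were even, so pairs may have been counted per mate, and tests were repeated with counts halved.

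The test was that of edgeR 4.0.16 under R 4.3.3: TMM, the filter on low counts by group, 1 model of all 16 libraries with a coefficient per group (8 residual degrees of freedom), quasi-likelihood F test, Benjamini-Hochberg adjustment over all 17799 genes. The standard error restates that test. The alternatives were RLE, library size alone, DESeq2 1.42.0, no filter, halved counts, only the groups compared, a replicate block, another control and each library left out. Steps were tested on simulated data. The plan was to name members called in a comparison with statistics and the others by level. Some members that missed a limit were given with statistics as well, as were per2 and cry5 between ages. Of the further pathway lists, at most the 4 called genes with the largest fold change are otherwise named per comparison. cry1a, cry1b, fkbp5, and2 and fbp2 were added after their values were seen. Members and lists were chosen with earlier results of these data known. Replicate numbers were not treated as pairs.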

Additional observations from a re-analysis of the deposited data

How the results depend on the processing

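Of 118 called differences of single members, none changed direction under any alternative; of 1399 recomputed values 1292 kept their call and 107 lost it. The number of members called stayed within 1.5 times the original in every comparison under RLE scaling, DESeq2, no low-count filter, halved counts and a fit of the compared groups only. The exceptions were 7 dpf fasted against 4 dpf, with 14 members called and 8 with scaling by library size alone, where the median log2 change of all genes was -0.33 in place of 0.01, and counts without a library. With a single library left out, the number called ran from 16 to 20 (ethanol, originally 21), 13 to 15 (feeding, 17), 4 to 5 (ventral, 4), 13 to 18 (5 against 4 dpf, 18), 5 to 12 (6 dpf fasted against 5 dpf, 6), 8 to 11 (7 against 6 dpf, 9), 9 to 15 (7 dpf fasted against 4 dpf, 14), 6 to 9 (7 dpf fed against 4 dpf, 8) and 19 to 22 (ethanol response minus feeding response, 21), and was 0 for GCaMP. The lowest of 7 dpf fasted against 4 dpf came without 4 dpf replicate 1 and the highest of 6 dpf fasted against 5 dpf without 5 dpf replicate 2; the cause was not tested. With the replicate number as a block the count changed only for 6 dpf fasted against 5 dpf, from 6 to 7. Deviations of same-numbered libraries correlated at -0.24 to 0.18 between groups, so the numbers were not taken as pairs. Members with few counts (arntl1a, nfil3-5 and rorcb with ethanol, nr1d4b when fed, hlfb) are limited by depth.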
